A study of Homo sapiens with 8 samples.

Results

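The integrin subunits described here are 8 genes, the alpha subunits ITGA2, ITGA3, ITGA5, ITGA6 and ITGAV and the beta subunits ITGB1, ITGB3 and ITGB5, out of 13703 genes listed in either of 2 tables of expression. They were chosen by name. All 8 stood in both tables, and all 8 passed the filter on low values in both. In 143B, ITGB3 passed it only through the control libraries, where it is high. Polyadenylated RNA was sequenced from 2 established human osteosarcoma cell lines, 143B and HOS, where 143B is itself a derivative of HOS. In each line, 2 libraries were labelled sgNAT10, from cells that the submitters call NAT10 knockout cells, and 2 were labelled NC, the control, so that 4 groups and 8 libraries were measured. NAT10 is an enzyme that acetylates cytidine in RNA. The labels give no guide sequence, do not say whether a line is a clone or a pool, and do not state if replicate libraries are separate cultures, so p-values measure only the spread between these libraries, which may be technical.

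Integrins are cell surface receptors made of an alpha and a beta subunit, which bind the extracellular matrix outside the cell and, through talin and kindlin, actin inside it. The beta subunit ITGB1 pairs with all 5 of these alpha subunits. ITGA5 with ITGB1 is the main fibronectin receptor. ITGAV also pairs with ITGB3 and ITGB5 to bind vitronectin and other ligands that carry the short peptide Arg-Gly-Asp. ITGA2 binds collagen, and ITGA3 and ITGA6 bind laminins. Cells of the bone and connective tissue use these receptors to attach to collagen, fibronectin and osteopontin, and osteosarcoma cells in culture carry them too. The RNA of a subunit does not by itself give the amount of receptor at the surface, which also depends on pairing and transport.

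The unit of both tables was FPKM, which counts sequenced fragments relative to transcript length and library size, so levels of different genes can be set side by side. The values also moved with base composition, between the lines and between 143B replicates, as given below, which limits such comparisons. Read depth was unknown. The targeted gene itself had 9.05 and 7.19 FPKM in the 143B libraries labelled sgNAT10, against 16.1 and 20.0 FPKM in 143B NC (log2 change -1.06, adjusted p = 0.026). That call was lost without either library labelled sgNAT10 (adjusted p = 0.11 and 0.22), without NC replicate 2 (0.064) and under median-ratio scaling (0.060). In HOS, NAT10 had 21.1 and 19.1 FPKM in the libraries labelled sgNAT10, against 14.9 and 16.2 FPKM in NC (log2 change 0.35, adjusted p = 0.0054, and -0.047 after the length and GC correction described below), so the RNA of the targeted gene was not lower under the HOS label and every HOS direction below is between libraries as labelled. Of 6 mesenchymal and osteoblastic markers, 5 were listed in 143B and 6 in HOS. Their summed level ranged over 501 to 790 FPKM in the 143B libraries labelled sgNAT10 and 1389 to 1808 FPKM in 143B NC, and over 1728 to 1791 FPKM in the HOS libraries labelled sgNAT10 and 1384 to 1577 FPKM in HOS NC. Markers of other cell types were low or unlisted, apart from the epithelial marker EPCAM in HOS. Of 7 leukocyte markers, CD14 alone was listed in 143B (at most 0.08 FPKM under sgNAT10 and 1.45 to 2.06 FPKM in NC), and 3 were listed in HOS, where they summed to 6.41 to 7.13 FPKM under sgNAT10 and 6.49 to 6.68 FPKM in NC. Of 5 epithelial markers, EPCAM and ITGB4 were listed, summing in 143B to 2.44 to 3.85 FPKM under sgNAT10 and 2.16 to 3.52 FPKM in NC, and in HOS to 20.6 to 22.2 FPKM under sgNAT10 and 17.02 to 19.4 FPKM in NC. Of the HOS sum, ITGB4 held 1.79 FPKM on average under sgNAT10 and 1.35 FPKM in NC, so most was EPCAM. The median listed gene in HOS had 10.7 and 10.5 FPKM under sgNAT10 and 8.68 and 8.605 FPKM in NC. No platelet marker of 4 was listed in either line, and of 4 endothelial markers PECAM1 and CDH5 were listed in HOS alone, summing to 1.86 to 2.02 FPKM under sgNAT10 and 1.09 to 1.11 FPKM in NC. In bulk RNA, fewer cells of a type and less RNA per cell cannot be told apart.

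RNA of all 8 subunits was found in the control libraries of both lines, but in a different order of level. In 143B NC the alpha subunits ITGA5 and ITGA3 led, at 99.4 ± 8.33 and 97.8 ± 8.63 FPKM (SD, n = 2), followed by ITGB5 at 62.2 ± 6.32 and ITGB1 at 58.6 ± 33.1 FPKM. In HOS NC the shared beta subunit ITGB1 led at 299 ± 38.4 FPKM, ahead of ITGA3 at 43.2 ± 4.52, ITGA5 at 33.8 ± 4.07, ITGAV at 18.3 ± 2.72 and ITGB5 at 17.2 ± 2.04 FPKM. The lower ranks were held by ITGA2 (5.70 ± 4.14), ITGA6 (5.52 ± 3.80), ITGB3 (3.21 ± 1.44) and ITGAV (2.16 ± 1.36 FPKM) in 143B NC, and by ITGA6 (8.69 ± 1.19), ITGB3 (2.81 ± 0.262) and ITGA2 (1.42 ± 0.226 FPKM) in HOS NC. Neighbours in these orders whose libraries overlapped were ITGA5 and ITGA3, ITGB5 and ITGB1, and the lower 4 in 143B, and ITGAV and ITGB5 in HOS.

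Between the lines, 4 subunits were higher in both 143B NC libraries than in both HOS NC libraries, and 2 were lower. The tables of the lines were made separately, so these levels are set side by side with no test. ITGB5 stood at 57.7 and 66.7 FPKM in 143B NC, against 15.8 and 18.6 FPKM in HOS NC, a ratio of means of 3.62. ITGA2, a collagen receptor subunit, stood at 2.77 and 8.63 FPKM in 143B NC, against 1.58 and 1.26 FPKM in HOS NC, a ratio of 4.01. The log2 ratio of ITGA2 was 2.60 without 143B NC replicate 1 and 0.96 without replicate 2. The ratio was 2.94 for ITGA5 and 2.26 for ITGA3. ITGAV stood at 1.20 and 3.12 FPKM in 143B NC, against 20.3 and 16.4 FPKM in HOS NC, a ratio of 0.118. ITGB1 stood at 35.2 and 81.9 FPKM in 143B NC, against 326 and 272 FPKM in HOS NC, a ratio of 0.196. Within their tables ITGB1 lay at percentiles 81.9 and 90.8 of listed genes in the 143B NC libraries and at percentiles 98.3 and 97.9 in those of HOS. ITGA6 and ITGB3 overlapped between the lines. Without 143B NC replicate 2, ITGA6 and ITGB3 also lay below HOS, which made 4 lower. Of the 11807 genes listed in both tables, 37.4% were higher in both 143B controls and 50.9% lower.

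**Figure D1:**
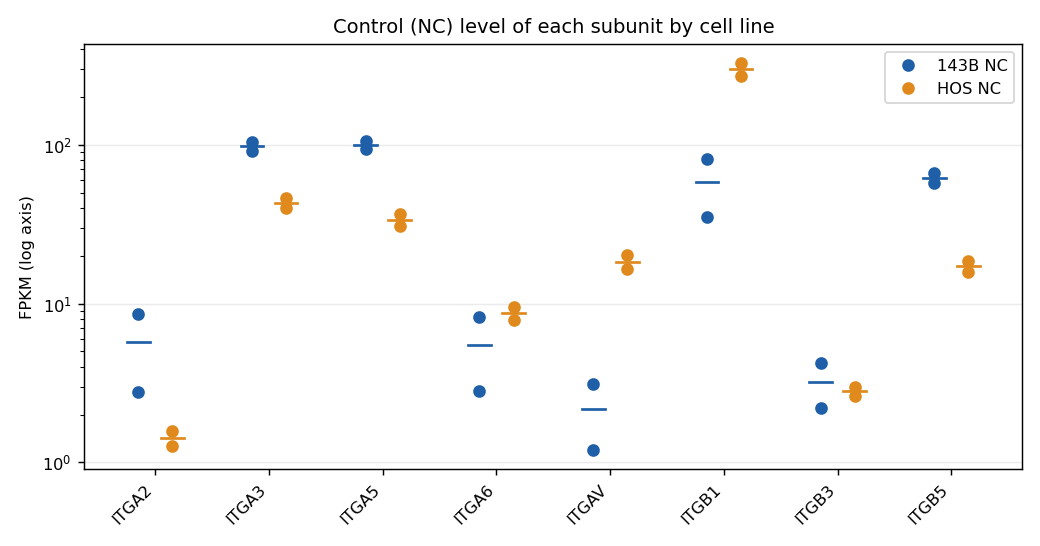
FPKM of each integrin subunit (log axis) in the control libraries of 143B (blue) and HOS (orange), where each point is a library and each line the mean of 2. ITGB1 and ITGAV lie lower in 143B NC than in HOS NC, whereas ITGA2, ITGA3, ITGA5 and ITGB5 lie higher.

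The control levels also moved with base composition over all genes. Among genes listed in both tables, the median log2 difference of FPKM + 1, 143B NC minus HOS NC, was -1.51 in the quartile of genes with the lowest GC content of the longest transcript and 1.18 in the highest, against -0.29 over all genes. ITGAV (a difference of -2.68), ITGB1 (-2.45) and ITGA2 (1.32) fell in the lowest quartile, ITGA6 (-0.70) in the second, ITGA5 (1.53), ITGB5 (1.80) and ITGB3 (0.10) in the third, and ITGA3 (1.16) in the highest. ITGA2 thus went the other way from the median of its quartile, while ITGA3 was close to the median of its own. The part of base composition in these levels was not tested.

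In 143B, 4 of the 8 subunits fell in the libraries labelled sgNAT10 and 0 rose. Genes were tested with limma on log2(FPKM + 1), adjusting p over all genes tested by Benjamini-Hochberg, and a call needed an adjusted p under 0.05. Of all 11419 genes tested, 25.4% were called lower and 12.9% higher, 38.3% in all. The 4 that fell were also the 4 whose libraries did not overlap, against 42.8% of genes with sgNAT10 below NC and 23.9% with sgNAT10 above. The median log2 change was -0.95 over the 8 subunits and -0.25 over all genes, and the change of each subunit is read against that shift. The subunits that fell were ITGB5, ITGB3, ITGA5 and ITGA3, of which ITGB3 passed the filter only through NC. ITGB1, ITGA2, ITGAV and ITGA6 were not called.

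The beta subunits of the vitronectin receptors fell in 143B. ITGB5 had 6.75 and 6.13 FPKM in the libraries labelled sgNAT10, against 57.7 and 66.7 FPKM in NC. The groups lay far apart, with a mean under sgNAT10 of 0.104 times that of NC, and the log2 change was -3.08 (SE 0.27, adjusted p = 0.00089). ITGB3, known best as the platelet and osteoclast beta subunit, had 0.21 and 0.11 FPKM under sgNAT10, against 2.19 and 4.22 FPKM in NC. Both libraries labelled sgNAT10 were thus under the 1 FPKM used as pseudocount, and the log2 change of -1.82 (SE 0.27, adjusted p = 0.0024) understates the ratio of means, 0.0499. With a pseudocount of 0.1 or 5 the value was -3.62 or -0.66, and both passed. Neither call was lost under any of the alternatives in which the gene was tested. ITGB3 passed the filter of 1 FPKM only through NC, and with a filter of 5 FPKM it was not tested in 143B.

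The partner ITGAV did not pass in 143B. It had 0.73 and 1.66 FPKM under sgNAT10, against 1.20 and 3.12 FPKM in NC, so the groups overlapped at a level near the floor of the table (log2 -0.49, 95% confidence interval -1.29 to 0.31, adjusted p = 0.31).

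The alpha subunits that led in 143B controls fell as well. ITGA5, the fibronectin receptor subunit, had 34.6 and 23.5 FPKM in the libraries labelled sgNAT10, against 105 and 93.5 FPKM in NC, with no overlap (log2 -1.76, SE 0.27, adjusted p = 0.0025). ITGA3, a laminin receptor subunit, had 50.6 and 35.4 FPKM under sgNAT10, against 104 and 91.7 FPKM in NC, again with no overlap (log2 -1.19, SE 0.26, adjusted p = 0.0089). The ITGA5 call was kept under each alternative, whereas ITGA3 was no longer called if sgNAT10 replicate 2 was left out (adjusted p = 0.068), if libraries were scaled by median ratio (log2 -0.91, adjusted p = 0.068) or if length and GC content of transcripts were corrected for (log2 -0.38, adjusted p = 0.14).

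The libraries of ITGB1, ITGA2 and ITGA6 overlapped between labels in 143B. ITGB1 had 24.1 and 43.8 FPKM in the libraries labelled sgNAT10, against 35.2 and 81.9 FPKM in NC (log2 -0.71, 95% confidence interval -1.67 to 0.25, adjusted p = 0.22). ITGA2 had 3.69 and 2.76 FPKM under sgNAT10, against 2.77 and 8.63 FPKM in NC (log2 -0.52, interval -1.57 to 0.53, adjusted p = 0.41). ITGA6 had 4.74 and 6.53 FPKM under sgNAT10, against 2.83 and 8.20 FPKM in NC (log2 0.15, interval -0.89 to 1.18, adjusted p = 0.82). In all 3, and in ITGAV, NC replicate 2 held the highest value and stood at over 2 times NC replicate 1. Without NC replicate 1 the number of subunits called lower was 7, with ITGB1 at -1.31 (adjusted p = 0.0013), ITGA2 at -1.20 (0.015), ITGAV at -0.94 (0.0034) and ITGA6 not called at -0.48. Without NC replicate 2 ITGA2 stood at 0.16, and without sgNAT10 replicate 2 ITGB1 was called (log2 -1.13, adjusted p = 0.035).

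**Figure D2:**
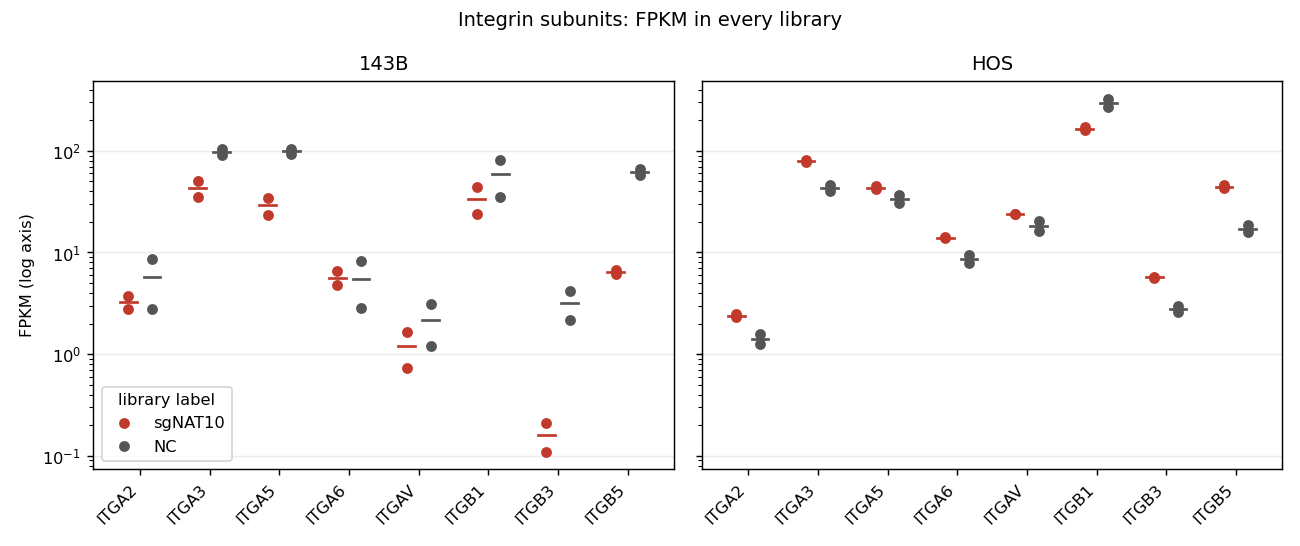
FPKM of each integrin subunit (log axis) in every library of 143B (left) and HOS (right), with red points for libraries labelled sgNAT10, grey points for NC, and a line at the mean of 2. In 143B the points of ITGA3, ITGA5, ITGB3 and ITGB5 separate with sgNAT10 below, while in HOS all 8 subunits separate, ITGB1 with sgNAT10 below and the other 7 with sgNAT10 above.

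In HOS, 7 of the 8 subunits rose in the libraries labelled sgNAT10 and ITGB1 fell. Of the 11957 genes tested in HOS, 45.5% were called higher and 23.0% lower, 68.5% in all, so calls were common in this line. None of the 8 subunits overlapped between labels, against 53.9% of genes with sgNAT10 above NC and 29.2% with sgNAT10 below. The median log2 change was 0.56 over the 8 subunits and 0.19 over all genes. On the log2(FPKM + 1) scale, ITGB5 had the largest absolute change among the 8 in both lines. In 143B that order depends on the pseudocount, since with 0.1 FPKM the change of ITGB3 was larger, at -3.62, than that of ITGB5.

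ITGB5 had 45.6 and 42.9 FPKM in the HOS libraries labelled sgNAT10, against 15.8 and 18.6 FPKM in NC, a ratio of means of 2.57 (log2 1.32, SE 0.10, adjusted p = 2.6e-08). ITGB3 had 5.76 and 5.64 FPKM under sgNAT10, against 2.99 and 2.62 FPKM in NC (log2 0.82, SE 0.11, adjusted p = 8.1e-06). The alpha partner of both, ITGAV, moved less. It had 23.8 and 24.1 FPKM under sgNAT10, against 20.3 and 16.4 FPKM in NC (log2 0.37, SE 0.11, adjusted p = 0.0053). ITGAV was not called if sgNAT10 replicate 1 (adjusted p = 0.060) or replicate 2 (0.074) was left out, under median-ratio scaling (0.23) and under quantile normalization (0.085).

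Among the laminin receptor subunits, ITGA3 had 81.6 and 77.6 FPKM in the HOS libraries labelled sgNAT10, against 40.0 and 46.4 FPKM in NC (log2 0.87, SE 0.09, adjusted p = 8.2e-07). ITGA6 had 14.1 and 14.0 FPKM under sgNAT10, against 9.53 and 7.85 FPKM in NC (log2 0.64, SE 0.11, adjusted p = 8.6e-05). Neither pair of groups overlapped. The collagen receptor subunit ITGA2 was at the foot of the order in HOS, with 2.46 and 2.30 FPKM under sgNAT10, against 1.58 and 1.26 FPKM in NC (log2 0.48, SE 0.12, adjusted p = 0.0014, and 0.078 under quantile normalization). The fibronectin receptor subunit ITGA5 had 44.98 and 42.0 FPKM under sgNAT10, against 31.0 and 36.7 FPKM in NC, and its rise (log2 0.36, SE 0.10, adjusted p = 0.0046) was reversed by the correction for length and GC content (log2 -0.17, adjusted p = 0.027). It was also lost under median-ratio scaling (adjusted p = 0.25) and without sgNAT10 replicate 1 (0.12).

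ITGB1 went the other way in HOS from the 5 alpha subunits described here, though ITGA5 too was lower after the length and GC correction. It had 159 and 171 FPKM in the libraries labelled sgNAT10, against 326 and 272 FPKM in NC, with no overlap and a ratio of means of 0.553 (log2 -0.85, SE 0.09, adjusted p = 9.5e-07). It stayed the most abundant of the 8 in HOS under either label. With a spread estimated from all 8 libraries together, ITGB3, ITGB5 and ITGA3 kept their calls in HOS and the other 5 subunits, ITGB1 among them (adjusted p = 0.14), did not.

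**Figure D3:**
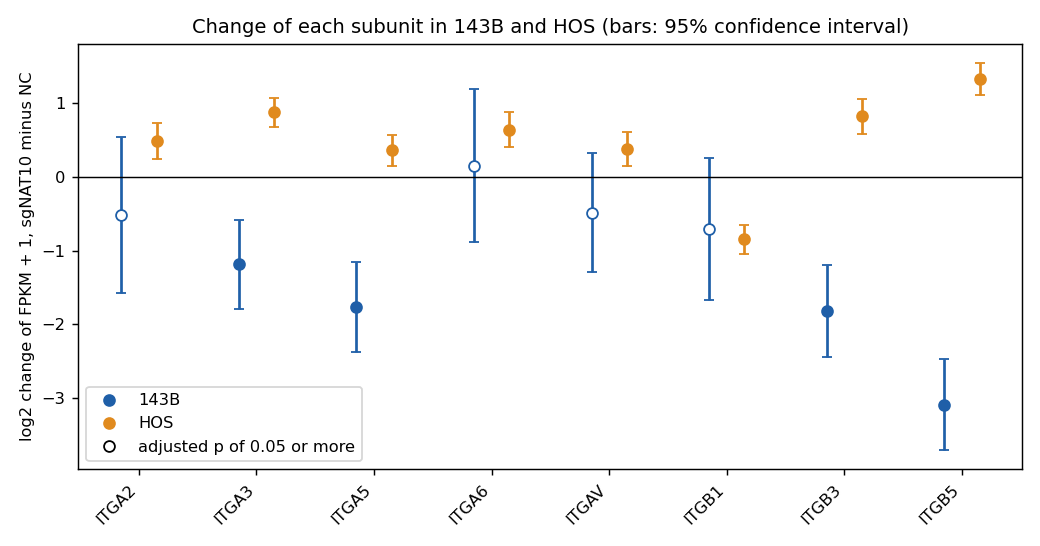
Log2 change of FPKM + 1, sgNAT10 minus NC, of each integrin subunit in 143B (blue) and HOS (orange), with the 95% confidence interval of the limma fit and open points where the adjusted p was 0.05 or more. ITGA3, ITGA5, ITGB3 and ITGB5 lie below 0 in 143B and above 0 in HOS, and ITGB1 lies below 0 in both lines, with an interval in 143B that spans 0.

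The change differed between the lines in 4 of the 8 subunits, by a joint limma fit of the 4 groups over 10655 genes tested in both tables. ITGB5 differed by -4.40 (143B minus HOS, SE 0.26, adjusted p = 2.2e-05), ITGB3 by -2.63 (SE 0.32, adjusted p = 0.00029), ITGA5 by -2.12 (SE 0.30, adjusted p = 0.00060) and ITGA3 by -2.06 (SE 0.29, adjusted p = 0.00057). Each of the 4 was called lower in 143B and higher in HOS, as were 15.7% of the genes tested in both lines. The median of the difference was -1.53 over the 8 subunits and -0.44 over all genes, of which 36.2% were called lower and 12.9% higher, 49.1% in all. For the rest the difference was not called, with 95% confidence intervals of -2.17 to 0.16 for ITGA2, -1.66 to 0.68 for ITGA6, -1.89 to 0.17 for ITGAV and -1.08 to 1.36 for ITGB1. These intervals are wide and do not show that the lines acted alike. The 4 calls were kept under every alternative in which the gene was tested, and 7 subunits were called without 143B NC replicate 1.

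Ratios between subunits within a library are free of the scaling of libraries but not of base composition, in which ITGB5 (54.3% GC) and ITGB1 (40.0% GC) differ. After the length and GC correction described below, the log2 changes of ITGB5 and ITGB1 still lay apart, at -2.46 and -0.88 in 143B and at 0.85 and -0.74 in HOS, by less than without it. The level of ITGB5 over that of ITGB1 was 0.281 and 0.140 in the 143B libraries labelled sgNAT10, against 1.64 and 0.814 in 143B NC. In HOS this ratio was 0.286 and 0.250 under sgNAT10, against 0.0483 and 0.0685 in NC. Without a correction for base composition, the lines thus stood far apart in the controls and lay in the same range in the libraries labelled sgNAT10. Over all genes, the control difference of 143B minus HOS had a median of -1.51 in the GC quartile of ITGB1. In the quartile of ITGB5 it was 0.23. The part of base composition in this comparison of the lines was not tested. The summed level of the 5 alpha subunits over that of ITGB1, their shared partner, was 1.05 and 0.934 in HOS under sgNAT10, against 0.314 and 0.399 in HOS NC, with no overlap. In 143B it was 3.92 and 1.60 under sgNAT10, against 6.14 and 2.50 in NC, and the groups overlapped. The ratio of ITGA5 to ITGA3 was close between replicates, at 0.684 and 0.664 under sgNAT10, against 1.01 and 1.02 in NC in 143B, and at 0.551 and 0.542 under sgNAT10, against 0.774 and 0.791 in NC in HOS. It was thus lower under sgNAT10 in both lines, with no overlap.

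**Figure D4:**
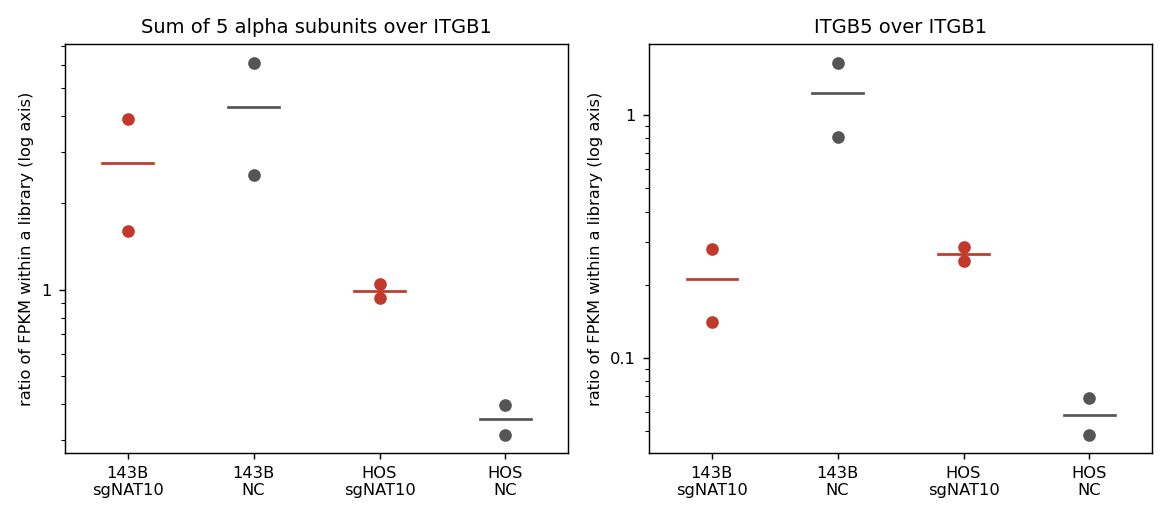
Ratios of FPKM within each library on log axes, for the summed level of ITGA2, ITGA3, ITGA5, ITGA6 and ITGAV over ITGB1 (left) and for ITGB5 over ITGB1 (right), with red points for libraries labelled sgNAT10, grey points for NC and a line at the mean of 2. In HOS both ratios are higher under sgNAT10, while in 143B the ratio of ITGB5 to ITGB1 is lower and that of the alpha subunits overlaps.

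As a sum, the 8 subunits took up 125 and 120 FPKM in the 143B libraries labelled sgNAT10, against 311 and 358 FPKM in 143B NC. In HOS they took up 378 and 380 FPKM under sgNAT10, against 447 and 402 FPKM in NC. ITGB1 made up 42.2% and 45.1% of that sum in HOS under sgNAT10, against 72.9% and 67.7% in HOS NC, and 19.2% and 36.5% in 143B under sgNAT10, against 11.3% and 22.9% in 143B NC. ITGB5 made up 5.39% and 5.11% in 143B under sgNAT10, against 18.6% in each 143B NC library. The make-up of the set thus moved in both lines, and the sum was lower under sgNAT10 in both lines. As a share of all listed FPKM it was 0.0157% and 0.0155% under sgNAT10, against 0.0476% and 0.0602% in NC in 143B. In HOS that share was 0.0779% and 0.0769% under sgNAT10, against 0.0799% and 0.0699% in NC, so the groups overlapped and the lower HOS sum did not hold relative to the library totals.

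Base composition of the transcripts moved with these changes. The 4 subunits called lower in 143B have longest transcripts of 52.3 to 61.3% GC (ITGB3 52.3%, ITGB5 54.3%, ITGA5 54.5%, ITGA3 61.3%), and the other 4 of 38.3 to 42.9% (ITGAV 38.3%, ITGB1 40.0%, ITGA2 40.2%, ITGA6 42.9%). Over all genes tested in 143B the median log2 change was 0.18, -0.064, -0.54 and -0.77 from the quartile of lowest GC content to that of highest, and in HOS it was -0.14, 0.12, 0.35 and 0.34. The 143B replicates differed with GC content too: NC replicate 2 minus replicate 1 had a median of 0.71 in the lowest quartile and -0.23 in the highest. By transcript length the medians over quartiles lay between -0.40 and -0.14 in 143B and went from -0.026 to 0.37 in HOS, where all 8 subunits are in the 2 quartiles of longer transcripts.

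After each library was corrected for transcript length and GC content, 6 subunits were called lower in 143B. ITGB5 stood at -2.46 (adjusted p = 1.8e-07), ITGB3 at -1.28 (adjusted p = 0.00012), ITGA5 at -1.14 (adjusted p = 0.00069), ITGB1 at -0.88 (adjusted p = 0.0050), ITGA2 at -0.75 (adjusted p = 0.018) and ITGAV at -0.74 (adjusted p = 0.0036), whereas ITGA3 (log2 -0.38) and ITGA6 (log2 0.050) were not called. The corrected HOS values were 0.85 for ITGB5, 0.45 for ITGA6, 0.41 for ITGB3, 0.34 for ITGA2, 0.32 for ITGAV and 0.29 for ITGA3, all called higher, with ITGB1 (-0.74) and ITGA5 (-0.17) called lower. The difference between lines was then called for ITGB5 (-3.31), ITGB3 (-1.68), ITGA2 (-1.09), ITGAV (-1.06), ITGA5 (-0.97) and ITGA3 (-0.67). After the correction ITGB5, ITGB3, ITGA2 and ITGAV were thus called lower in 143B and higher in HOS, ITGA5 and ITGB1 were called lower in both lines, and ITGA3 and ITGA6 were called in HOS alone. The cause of the shift with GC content was not tested.

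**Figure D5:**
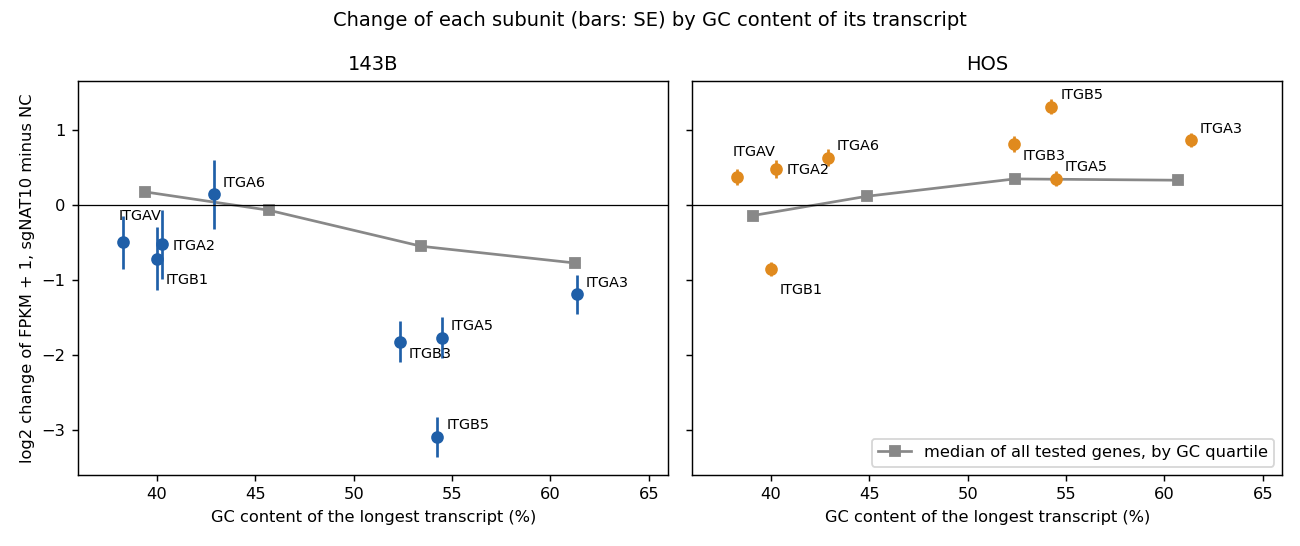
Log2 change of FPKM + 1, sgNAT10 minus NC, of each integrin subunit with its SE, against the GC content of its longest transcript, in 143B (left, blue) and HOS (right, orange), with grey squares for the median of all tested genes in each quartile of GC content. The subunits with over 50% GC lie lowest in 143B, the grey medians fall with GC content in 143B and are higher in the 2 quartiles of higher GC content in HOS, and ITGB5 lies farther from them than its neighbours in both lines.

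Sequences upstream of the start sites are shown for 3 subunits, ITGB5 and ITGA5, which were called in opposite directions in the lines, and ITGB1, which was lower in HOS. The windows run from 250 bases before to 50 bases after the RefSeq start site (GRCh38.p14). Windows were found for 6 of the 8 subunits, all but ITGA3 and ITGB3. Capitals mark letters that match a GC box (GGGCGG), an AP-1 site (TGANTCA) or a TEAD site (GGAATG), on either strand.
ITGB5: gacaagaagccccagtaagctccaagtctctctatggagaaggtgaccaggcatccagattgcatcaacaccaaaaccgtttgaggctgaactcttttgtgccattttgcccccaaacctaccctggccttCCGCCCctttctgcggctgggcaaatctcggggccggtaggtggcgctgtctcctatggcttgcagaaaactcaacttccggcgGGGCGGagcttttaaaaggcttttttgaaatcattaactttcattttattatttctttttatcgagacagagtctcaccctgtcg
ITGA5: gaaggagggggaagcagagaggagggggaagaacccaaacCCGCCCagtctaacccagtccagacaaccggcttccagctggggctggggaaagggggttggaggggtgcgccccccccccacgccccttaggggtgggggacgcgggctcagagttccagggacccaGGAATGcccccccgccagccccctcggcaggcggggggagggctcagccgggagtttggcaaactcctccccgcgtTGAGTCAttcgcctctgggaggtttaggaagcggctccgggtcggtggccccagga
ITGB1: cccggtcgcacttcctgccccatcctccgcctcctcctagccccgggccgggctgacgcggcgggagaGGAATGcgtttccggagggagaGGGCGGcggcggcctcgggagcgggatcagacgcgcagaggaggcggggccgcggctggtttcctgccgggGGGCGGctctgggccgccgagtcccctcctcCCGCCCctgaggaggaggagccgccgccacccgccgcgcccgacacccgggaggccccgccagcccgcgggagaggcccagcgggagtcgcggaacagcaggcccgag
The ITGB5 window is chr3:124901369-124901668 on the minus strand, has 49.7% GC and holds 2 GC boxes and no match to the other 2 motifs. The ITGA5 window is chr12:54419217-54419516 on the minus strand, has 69.3% GC and holds 1 match to each of the 3 motifs, with that to the AP-1 site reading TGAGTCA. The ITGB1 window is chr10:32958181-32958480 on the minus strand, has 78.3% GC and holds 3 GC boxes and 1 TEAD match. Among the 6 windows, 5 held a GC box, 1 an AP-1 match and 2 a TEAD match, against 44.95%, 7.71% and 14.0% of 35116 promoter windows of the same length. GC content ran from 49.7% to 78.3% over the 6 windows, against a median of 58.7% over all promoters. The part of GC content in these matches was not tested. A match is a description of letters and not a bound site.

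In the genome the 8 genes are spread over 6 chromosomes. By GENCODE 29 (GRCh38), ITGB5 lies on chromosome 3 from 124761948 to 124901418 (minus strand), ITGB1 on chromosome 10 from 32900319 to 33005792 (minus), ITGA5 on chromosome 12 from 54395261 to 54419460 (minus) and ITGA2 on chromosome 5 from 52989326 to 53094779 (plus). ITGA3 lies on chromosome 17 from 50055968 to 50090481 (plus) and ITGB3 on the same chromosome from 47253846 to 47311816 (plus). ITGA6 lies on chromosome 2 from 172427354 to 172506282 (plus) and ITGAV from 186590065 to 186680901 (plus). All are annotated as protein coding. Exons of ITGA5, ITGA6, ITGAV and ITGB1 overlap antisense or divergent genes on the other strand, and those of ITGB3 overlap AC068234.1 on the same strand, and none of these partners is listed under its name in either table. The sources used here do not say whether counting used strand, so reads of such partners could not be told apart from those of the subunit.

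Of 18 further integrin subunits, 8 were listed in 143B and 9 in HOS. In 143B 3 of 5 tested fell and 0 rose, where 25.4% of all genes were called lower and 12.9% higher. All 3 were under 1 FPKM in both libraries labelled sgNAT10, so they passed the filter only through NC, where they are high. The count is thus no result about these subunits. ITGA11, a collagen receptor subunit of mesenchymal cells, had 0.22 and 0.23 FPKM in the libraries labelled sgNAT10, against 1.58 and 2.03 FPKM in NC (log2 -1.19, adjusted p = 0.0030). ITGA7, the laminin receptor subunit of muscle, had 0.61 and 0.68 FPKM under sgNAT10, against 3.10 and 3.34 FPKM in NC (log2 -1.36, adjusted p = 0.0040), and ITGB4, the hemidesmosome subunit, had 0.45 and 0.41 FPKM, against 1.29 and 1.64 FPKM in NC (log2 -0.78, adjusted p = 0.014). The calls of ITGA7 and ITGB4 were lost without either library labelled sgNAT10 (adjusted p of 0.064 to 0.072 and 0.11 to 0.19), and after the length and GC correction ITGB4 was at 0.046. The values were 1.29 ± 0.354 FPKM under sgNAT10 and 4.09 ± 2.73 FPKM in NC for ITGA4 and 1.57 ± 0.658 and 1.70 ± 0 FPKM for ITGAE, neither called (adjusted p = 0.066 and 0.80). After the length and GC correction ITGAE was called higher in 143B by limma (log2 0.56, adjusted p = 0.035). Its difference between the lines was then called too (1.51, adjusted p = 0.00052), against 0.43 without the correction, not called (0.22). The ITGA4 libraries did not overlap, at 1.04 and 1.54 FPKM under sgNAT10 against 2.16 and 6.02 FPKM in NC, and ITGA4 was called lower in 7 of 17 alternatives, among them median-ratio scaling (adjusted p = 0.0049), the length and GC correction (0.00046) and leaving out NC replicate 1 (1.2e-05). ITGA1 (0.225 and 0.975 FPKM on average), ITGA10 (0.350 and 0.775 FPKM) and ITGAX (0.470 and 1.15 FPKM) were listed but not tested.

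In HOS 2 of 7 tested further subunits rose and 2 fell, beside the 45.5% higher and 23.0% lower over all genes. ITGA11 had 12.2 and 11.1 FPKM in the libraries labelled sgNAT10, against 5.18 and 5.42 FPKM in NC (log2 1.001, adjusted p = 7.3e-07), and thus went the other way from 143B (difference -2.19, adjusted p = 0.00019). ITGA10, another collagen receptor subunit, rose to 1.37 ± 0.0990 FPKM under sgNAT10, against 0.565 ± 0.120 FPKM in NC (log2 0.60, adjusted p = 0.00020), and was not called after the length and GC correction (log2 0.066, adjusted p = 0.60). With both NC libraries under 1 FPKM, ITGA10 passed the filter only through the libraries labelled sgNAT10, where it is high. ITGAE fell to 2.97 ± 0.0283 FPKM, against 4.74 ± 0.0707 FPKM in NC (log2 -0.53, adjusted p = 0.00040), and ITGA7 to 1.96 ± 0.163 FPKM, against 2.70 ± 0.523 FPKM in NC (log2 -0.32, adjusted p = 0.029, and not called without sgNAT10 replicate 2 at 0.17, without NC replicate 2 at 0.24 or after scaling to a common sum at 0.22). ITGA4 (14.6 ± 0.446 FPKM under sgNAT10 and 15.9 ± 2.15 FPKM in NC), ITGA1 (3.54 ± 0.191 and 3.85 ± 0.799 FPKM) and ITGB4 (1.79 ± 0.205 and 1.35 ± 0.120 FPKM) were not called. After the length and GC correction each was called lower by limma, ITGA4 at -0.24 (adjusted p = 0.01), ITGA1 at -0.21 (0.036) and ITGB4 at -0.35 (0.0027). After scaling to a common sum ITGB4 was called higher (log2 0.38, adjusted p = 0.0055), and ITGA4 and ITGA1 were not called. ITGB2 (0.865 and 0.295 FPKM on average), the leukocyte beta subunit, and ITGB8 (0.975 and 0.295 FPKM) were listed in HOS alone and not tested.

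Matrix genes that encode ligands of integrins were mostly called lower in 143B and higher in HOS. The list holds COL1A1 and COL1A2, which are also among the mesenchymal markers summed above. Whether the shift of those markers had a part in the list's change was not tested. Counts of this list and of those below are without the length and GC correction. From the lowest to the highest GC quartile, the share of genes called lower in 143B went from 5.06% to 47.1%. The share called higher in HOS went from 24.4% to 58.4%. The part of base composition in these counts was not tested. In 143B 20 of 25 tested ligand genes fell and 1 rose, with a median of -1.70, where 25.4% of all genes were called lower and 12.9% higher with a median of -0.25. TGFBI, a matrix protein induced by TGF-beta (log2 -2.57, adjusted p = 0.00099), the laminin chain LAMA5 (log2 -2.56, adjusted p = 0.0010) and the collagen chain COL4A2 (log2 -2.44, adjusted p = 0.0011) changed most. LAMA5 was under 1 FPKM in both libraries labelled sgNAT10 and passed the filter only through NC. How many others of the 20 did so was not counted, so the 143B count is limited by the filter. In HOS 20 of 29 rose and 1 fell, with a median of 0.36, where 45.5% of all genes were called higher and 23.0% lower with a median of 0.19. SPP1, osteopontin, a ligand of ITGAV with ITGB3, had 7.13 ± 0.375 FPKM in the libraries labelled sgNAT10 and 1.02 ± 0.438 FPKM in NC (log2 2.02, adjusted p = 6.5e-09). With 1.33 and 0.71 FPKM in NC, SPP1 passed the filter in HOS only with the libraries labelled sgNAT10, where it is high. It was followed by the laminin chain LAMB3 (log2 1.75, adjusted p = 6.3e-09) and thrombospondin, THBS1 (log2 0.72, adjusted p = 6.8e-06). In 143B SPP1 had 1.79 ± 0.912 FPKM under sgNAT10 and 9.42 ± 4.97 FPKM in NC (log2 -1.86, adjusted p = 0.011).

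Among genes that link integrins to actin, 10 of 25 fell and 4 rose in 143B, with a median of -0.61, beside 25.4% lower and 12.9% higher over all genes. TNS3, a tensin that binds beta subunit tails, fell to 0.705 ± 0.219 FPKM under sgNAT10, against 10.1 ± 4.19 FPKM in NC (log2 -2.65, adjusted p = 0.0019), and passed the filter only through NC. The adhesion protein zyxin, ZYX, fell too (log2 -1.58, adjusted p = 0.0037). Its relative LPP rose in 143B (log2 2.04, adjusted p = 0.0029) and in HOS (log2 1.13, adjusted p = 1.1e-07). In HOS 9 of 25 rose and 7 fell, with a median of 0.060, beside the 45.5% higher and 23.0% lower over all genes. Those that changed most in HOS were LPP, paxillin, PXN (log2 0.92, adjusted p = 3.2e-07), and kindlin-1, FERMT1 (log2 0.85, adjusted p = 7.3e-06). FERMT1 had 1.87 and 1.83 FPKM in the HOS libraries labelled sgNAT10, against 0.69 and 0.47 FPKM in NC. It thus passed the filter only through the libraries labelled sgNAT10, where it is high.

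Of signalling genes at adhesions, 4 of 20 fell and 2 rose in 143B with a median of -0.23, near the 25.4% lower and 12.9% higher over all genes. In HOS 15 of 21 rose and 3 fell with a median of 0.46, beside 45.5% higher and 23.0% lower over all genes. The adaptor CRK rose in 143B (log2 2.57, adjusted p = 0.0017), and the scaffold BCAR1 (log2 -1.94, adjusted p = 0.0013) and the kinase FYN (log2 -1.61, adjusted p = 0.0085) fell. In HOS the adaptor CRKL (log2 1.32, adjusted p = 2.3e-08) and the kinases PAK2 (log2 1.08, adjusted p = 1.6e-07) and CSK (log2 0.85, adjusted p = 1.4e-06) rose most.

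Of genes for integrin trafficking, 4 of 17 fell and 1 rose in 143B (median -0.12), and 9 of 17 rose and 4 fell in HOS (median 0.23). These counts are near the shares over all genes, 25.4% lower and 12.9% higher in 143B and 45.5% higher and 23.0% lower in HOS, so they are no result about the list. In 143B the adaptor GGA3 fell (log2 -2.24, adjusted p = 0.0024), as did the recycling GTPase RAB11B (log2 -1.85, adjusted p = 0.0027), and the retromer subunit VPS35 rose (log2 1.90, adjusted p = 0.0045). In HOS the sorting nexin SNX27 (log2 1.11, adjusted p = 1.7e-07) and the GTPase ARF6 (log2 1.11, adjusted p = 4.2e-08) rose, and HAX1 fell (log2 -0.99, adjusted p = 3.3e-08). Of 14 membrane partners, 3 fell and 3 rose in 143B (median -0.31), and 10 rose and 1 fell in HOS (median 0.43), beside the same shares over all genes. Caveolin-1, CAV1, rose in 143B (log2 3.43, adjusted p = 0.00089), and the tetraspanin CD9 (log2 -2.74, adjusted p = 0.0011) and the urokinase receptor PLAUR (log2 -2.05, adjusted p = 0.0012) fell. In HOS PLAUR (log2 1.35, adjusted p = 2.5e-08), the syndecan SDC1 (log2 0.89, adjusted p = 9.8e-07) and the tetraspanin CD81 (log2 0.63, adjusted p = 2.1e-05) rose.

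Profiles over the 8 libraries were compared after each gene was centred within its table on the log2(FPKM + 1) scale. Likeness was measured as the root mean square difference over the 8 libraries. The nearest profile was sought among 10655 genes tested in both tables. The nearest other subunit was ITGB3 for ITGB5 (0.51), ITGA5 for ITGB3 (0.31) and for ITGA3 (0.27), ITGA3 for ITGA5 (0.27), ITGAV for ITGB1 (0.45), ITGA6 (0.27) and ITGA2 (0.27), and ITGA2 for ITGAV (0.27). The nearest gene overall was TMEM171 for ITGB5 (0.082), QSOX2 for ITGB3 (0.073), MEN1 for ITGA5 (0.038), TMEM201 for ITGA3 (0.044), COPB2 for ITGB1 (0.062), RMI1 for ITGAV (0.026), RASSF8 for ITGA6 (0.062) and TUT4 for ITGA2 (0.11). Between 276 genes, for ITGB5, and 2093 genes, for ITGB1, lay nearer to a subunit than its nearest other subunit did. ITGB5 and ITGA6 were the most distant pair, at 1.21. With 8 libraries in 4 groups, such likeness is a description only.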

How the data were processed

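Polyadenylated RNA of 8 libraries, 2 in each of 4 groups, was made into BGISeq-500 libraries per the labels' protocols. The authors deposited FPKM values, 1 table a line. Bowtie2, RSEM, DESeq2 and GRCh38 are named, without roles, in the submitters' processing notes, and the annotation version is not given. The tables list 12700 genes for 143B and 12810 for HOS, each with over 0.5 FPKM in 2 or more libraries. They hold no counts, so read depth is unknown and counting error cannot be given. Listed values sum to 484800 to 798100 FPKM in a library. On the log2(FPKM + 1) scale replicates correlated (Pearson, over listed genes) at 0.979 to 0.986 in 143B and 0.995 to 0.997 in HOS.

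Genes reaching 1 FPKM in 2 of a line's 4 libraries were fitted on log2(FPKM + 1) with limma 3.58.1 in R 4.3.3 (two-sided, intensity trend, Benjamini-Hochberg threshold 0.05), as sgNAT10 minus NC within each line, with a joint fit for the difference between lines. With 2 libraries against 2, an exact permutation test cannot go below p = 0.33. Lengths and GC contents are those of the longest transcript in GENCODE 29, found by name for 98.3% of the genes tested in 143B and 98.5% in HOS. The correction regressed each library on splines of length and GC content with 4 degrees of freedom.

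The 8 subunits, the gene lists and the alternatives were chosen with earlier results of these data known, and so support nothing by themselves. Named were the 8 subunits, NAT10, each other listed integrin subunit, from each list and line at most 3 genes with the largest called change whose libraries do not overlap, and the nearest profiles. Breakdowns by GC and length quartile, within-library ratios and motif searches were added after values were seen.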

Additional observations from a re-analysis of the deposited data

Results flagged for a closer look

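The change under the sgNAT10 label differed between the lines for the results below, by the difference term of the joint limma fit (adjusted p under 0.05, 143B minus HOS, log2 scale, 2 libraries a group). Of the genes tested in both lines, 49.1% passed this test, so a difference between lines is common in these tables.

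Among the integrin subunits it was -4.40 for ITGB5, -2.63 for ITGB3, -2.12 for ITGA5 and -2.06 for ITGA3, and among the further subunits -2.19 for ITGA11, -1.04 for ITGA7 and -1.03 for ITGB4. In 143B, ITGB3, ITGA11, ITGA7 and ITGB4 passed the filter only through NC, where they are high. After the length and GC correction the difference was 0.24 for ITGA7 and 0.40 for ITGB4. NAT10 itself differed by -1.41.

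Among matrix ligands the difference was -3.88 for SPP1, -2.90 for TGFBI, -2.85 for LAMA5, -2.81 for COL4A2, -2.72 for LAMB3 and -1.81 for THBS1. Among genes of actin linkage and adhesion signalling it was -3.29 for TNS3, -2.09 for ZYX, -1.77 for PXN, -2.32 for BCAR1, -2.14 for FYN, -1.61 for CSK, -1.54 for CRKL and -0.99 for PAK2, and the reverse for CRK at 2.20 and LPP at 0.91. Among trafficking genes it was -2.70 for GGA3, -2.15 for RAB11B, -1.73 for ARF6 and -1.23 for SNX27, with VPS35 at 2.53 and HAX1 at 1.18. Among membrane partners it was -3.40 for PLAUR, -2.84 for CD9, -2.36 for SDC1 and -1.13 for CD81, with CAV1 at 2.95.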

How the results depend on the processing

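Direction and call were kept, under every alternative in which the gene was tested, by ITGB5, ITGB3 and ITGA5 in 143B, by ITGB5, ITGB3 and ITGA3 in HOS, and by the difference between lines for ITGB5, ITGB3, ITGA5 and ITGA3. In 143B 4370 genes were called, 1473 higher and 2897 lower. Under median-ratio scaling the split was 2361 higher and 2541 lower, and after scaling to a common sum 896 and 3736. In HOS 8195 genes were called, 5444 higher and 2751 lower, against 3762 and 4038 under median-ratio scaling, 7075 and 1703 after scaling to a common sum, and 1864 genes in all with a spread shared by all 8 libraries. With that shared spread 3 subunits were called higher in HOS and 0 lower. Read depth is unknown, and 2 libraries a group limit all calls. The cause was not tested for any of the changes below.

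Replicate numbers are shared between labels, but the labels do not say that they pair libraries. Deviations of same-numbered libraries correlated at 0.61 in 143B and -0.11 in HOS. With a replicate block 7652 genes and 7 subunits lower were called in 143B, and 7015 genes with the block and the length and GC correction. With the block 6 subunits were called lower in the difference between lines, with ITGA2 (-1.01, limma adjusted p = 0.0070) and ITGAV (-0.86, adjusted p = 0.0025) added. With the HOS numbers crossed, a fit added after the data were seen, 8458 genes were called.

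Leaving out each library in turn gave 1995 to 5067 genes and 4 to 7 subunits lower in 143B, 4 to 7 subunits lower in the difference between lines, and 4 subunits with 143B controls below HOS without 143B NC replicate 2, where the log2 ratio of ITGB3 was -0.36 (up to 0.59 without other libraries). In these fits the lone library of a group was assumed to vary like the others. Changes that turned sign ranged over -1.20 to 0.16 for ITGA2, -0.48 to 0.78 for ITGA6 and -0.36 to 0.17 for ITGAE in 143B, and over -0.26 to 0.083 for ITGA1 and -0.24 to 0.022 for ITGA4 in HOS. The difference between lines ranged over -1.12 to 0.14 for ITGA6 and -0.46 to 0.74 for ITGB1.

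Scaling to a common sum turned ITGA6 in 143B (-0.14), ITGA1 (0.080) and ITGA4 (0.091) in HOS, and the difference for ITGB1 (-0.40). ITGAE in 143B was at 0.062 under median-ratio scaling and 0.052 under quantile normalization, which put the difference for ITGA6 at 0.052. The length and GC correction, with or without the replicate block, gave 2 subunits lower in HOS and turned ITGAE (0.56) and ITGB4 (0.046) in 143B, ITGA5 (-0.17), NAT10 (-0.047) and ITGB4 (-0.35) in HOS, and the difference for ITGB1 (-0.14), ITGA7 (0.24) and ITGB4 (0.40).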
